A study of Xenopus laevis with 3 samples.

Results

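Genes for matrix glycoproteins, proteoglycans and the proteases that cut them were examined in the inner ear of the juvenile African clawed frog, *Xenopus laevis*. The genes were taken by symbol: all matrix metalloproteinases (mmp), their TIMP inhibitors, ADAM and ADAMTS proteases, hyaluronan-binding and small leucine-rich proteoglycans, thrombospondins, fibronectin and tenascin, fibulins and fibrillins, nidogens, syndecans, glypicans and the CCN proteins under their older names ctgf and cyr61. Of the 9240 genes named on the array, 48 carried such a symbol, and they were measured by 96 of the 15495 probe sets assigned to a single symbol. A probe set is the group of short probes that together report one transcript. The rule uses symbols and no measured value.

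The data were 3 Affymetrix *Xenopus laevis* genome arrays of dissected inner ear tissue, which together form 1 group of untreated, post-metamorphic animals of 3 months obtained from a commercial supplier. Each array held the RNA of a separate pool of animals: 5 animals with a mean weight of 9.0 g in replicate 1, 5 animals of 9.6 g in replicate 2, and 6 animals of 9.6 g in replicate 3. The RNA was amplified before labelling. Values are GCRMA log2 intensities in arbitrary units (a.u.), and a probe set was called detected where its mean over the 3 arrays was 4 or more, the minimum intensity used in the study's methods. With 1 group there is no treated or younger sample to compare, so the questions asked of these genes were which were detected and how evenly the 3 pools carried them. Because the tissue was profiled in bulk, fewer cells of a type and less RNA per cell cannot be told apart, and because probe sets differ in affinity, the level of one probe set is not set against that of another.

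The extracellular matrix gives a tissue its stiffness and holds signalling proteins near cells. Proteoglycans such as versican and decorin carry sulfated sugar chains that bind water, collagen fibrils and growth factors, glycoproteins such as fibronectin, thrombospondins and nidogens link cells to the fibrils and to basement membranes, and syndecans and glypicans hold heparan sulfate at the cell surface. Metalloproteinases of the MMP, ADAM and ADAMTS families cut these proteins or shed them from cells, and TIMPs block the proteases. In the inner ear such matrix lies in the cartilage of the otic capsule, in the connective tissue around the membranous labyrinth, beneath the sensory epithelia and around nerve fibres.

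The arrays were alike in overall level, with medians of 7.57, 7.49 and 7.53 for replicates 1, 2 and 3 and Pearson correlations across all probe sets, which are not independent replicates, of 0.994 to 0.995. Of 13 measured genes that mark otic epithelium and hair cells, 12 were detected, the exception being pax8 at 1.95 on each array. Markers of several tissues differed between pools, those of nerve and skeletal muscle among them. The summed linear level of the neuron markers was 73138, 51799 and 35102 on replicates 1, 2 and 3. That of the skeletal muscle markers was 17871, 15198 and 31892. Such sums, here and below, take in all measured probe sets of a list, detected or not, so the highest values weigh most.

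Matrix genes were detected about as often as other named genes. Of the 48 genes, 36 (75.0%) had at least 1 detected probe set, against 80.2% of all named genes, and of the 96 probe sets 65 (67.7%) were detected, against 72.8% of all probe sets with 1 symbol and 64.4% of all 32539 probe sets. Limma tested one-sided whether each mean exceeded 4 and adjusted over all probe sets by Benjamini-Hochberg. It called a mean above the minimum for 62 of the 96 probe sets (64.6%), against 62.2% of all. Among all probe sets with 1 symbol it called a larger share, 10974 of 15495. By gene it called 36 of the 48 (75.0%), against 78.5% of named genes. Every list but 3 had all its measured genes detected. The exceptions were the metalloproteinases, with 10 of 15 genes, the ADAMs, with 3 of 9, and the syndecans, with 3 of 4. Of the 31 probe sets that were not detected, 24 had a mean below 2.3, and 24 differed by less than 0.1 between their highest and lowest array.

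**Figure D1:**
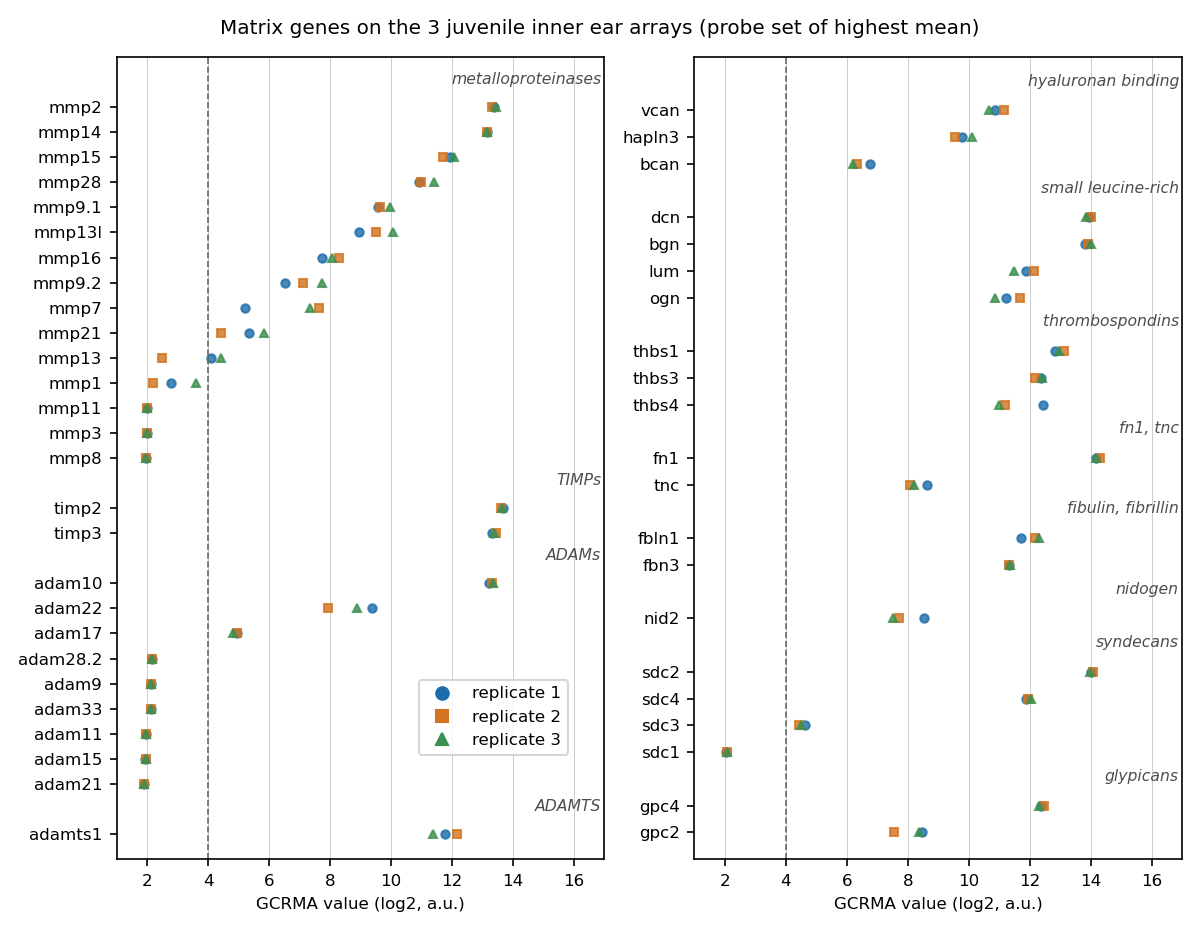
Value of each of the 48 matrix genes on the 3 juvenile inner ear arrays (GCRMA log2, a.u.), by the probe set of highest mean, grouped by role; circles, squares and triangles are replicates 1, 2 and 3, and the dashed line is the minimum of 4. The 12 genes that were not detected lie left of the line on average, all but mmp13 and mmp1 near 2 on every array, and levels of different genes are not comparable because probe sets differ in affinity.

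Among the proteases, the gelatinase mmp2, which cuts basement membrane collagen and denatured collagen, and mmp14, the membrane-anchored enzyme that activates the mmp2 proenzyme, were both detected with little spread between pools. Mmp2 measured 13.37, 13.31 and 13.43 on replicates 1, 2 and 3, and the mmp14 probe set of highest mean measured 13.16, 13.14 and 13.14. The other membrane-anchored enzymes on the array, mmp15 at 11.95, 11.72 and 12.07 and mmp16 at 7.73, 8.28 and 8.07, were also detected on every array. A further probe set of mmp14 read 4.34, 3.76 and 4.34, close to the minimum, and did not pass limma's test (adjusted p = 0.363).

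Both measured copies of the second gelatinase were detected. Mmp9.1 read 9.58, 9.63 and 9.96, and mmp9.2 read 6.52, 7.10 and 7.74, a mean of 7.12 ± 0.61 (SD, n = 3 pools), while a further mmp9.2 probe set lay at 1.88. Mmp28, known in mammals as epilysin, was read by probe sets of both of its homeologs, the L and S gene copies that *X. laevis* keeps from an ancient genome duplication. Its L copy measured 10.91, 10.996 and 11.40 and its S copy 9.48, 9.63 and 9.81, while a further L probe set lay at 2.12. In the detected probe sets of both gelatinase copies and of both mmp28 copies replicate 1 was lowest and replicate 3 highest.

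The collagenases and stromelysins divided. Mmp13l, a collagenase-like gene, was detected for both homeologs, at 8.94, 9.49 and 10.06 for the S copy (mean 9.49 ± 0.56) and at 7.12, 7.33 and 7.13 for the L copy, although 2 more probe sets of the L copy lay at 2.10 and 1.85. Mmp13, the collagenase of cartilage and bone remodelling, lay just under the minimum, with 4.09, 2.47 and 4.41 (mean 3.66 ± 1.04). Its value on replicate 2 was the low one, and replicates 1 and 3 were above 4. Mmp1 measured 2.79, 2.17 and 3.59, and it too was lowest on replicate 2. Mmp3 and mmp8, a stromelysin and the neutrophil collagenase of mammals, had means between 1.93 and 1.98, and mmp11, the stromelysin induced by thyroid hormone in the metamorphosing tadpole, had a mean of 1.99.

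Mmp7 and mmp21 passed the test only narrowly. Mmp7, a small enzyme without the hemopexin domain made mainly by epithelia, measured 5.22, 7.63 and 7.33, with replicate 1 more than 2 units below the others, a mean of 6.72 ± 1.31 and an adjusted p of 0.0296 by limma. Mmp21, which in vertebrate embryos acts in left-right patterning, measured 5.32, 4.43 and 5.82 (mean 5.19 ± 0.71, adjusted p = 0.0467 by limma). Neither call held when some of the pools were left out. For mmp7 the adjusted p by limma was 0.108 without replicate 2, 0.148 without replicate 3 and 0.00387 without replicate 1. For mmp21 it was 0.166 without replicate 1, 0.153 without replicate 3 and 0.0219 without replicate 2. A second mmp7 probe set lay at 2.01.

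The genes for some of these enzymes lie side by side. In the RefSeq annotation, mmp3, mmp7 and mmp8 of the L subgenome follow each other within 3 genes, and of these mmp7 alone was detected. On the S subgenome mmp13, mmp8, mmp1 and mmp13l lie within 6 genes, and of these mmp13l alone was detected. The only other matrix genes at most 5 genes apart were the adjacent pair lum.L and dcn.L, both detected.

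The TIMP inhibitors were steady across pools on all but 1 probe set. Timp2, which besides inhibiting metalloproteinases takes part with mmp14 in activating mmp2, measured 13.68, 13.59 and 13.66 for the S homeolog and 13.07, 13.11 and 13.10 for the L homeolog. Timp3, the inhibitor that binds to the matrix and also blocks adam17 and ADAMTS enzymes, measured 13.30, 13.45 and 13.37 on 1 probe set. Its other probe set read 5.95, 4.79 and 4.27, did not pass limma's test (adjusted p = 0.0983) and had a range of 1.68. The 2 probe sets of this gene did not show the same order of pools, the first being highest on replicate 2 and the other on replicate 1.

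Of the ADAMs, membrane proteases that shed the outer parts of surface proteins, adam10, adam17 and adam22 were detected. Adam10, the sheddase that acts on Notch and cadherins, measured 13.22, 13.30 and 13.35. Its 2 other probe sets were below the minimum, one by a very small margin at 3.92, 3.91 and 4.13 (mean 3.99) and one at 3.30. Adam17, the enzyme that releases tumour necrosis factor and EGF receptor ligands, was low but even at 4.96, 4.94 and 4.80 (adjusted p = 0.000676 by limma). Adam22, a neuronal surface protein without protease activity, measured 9.39, 7.93 and 8.88, a mean of 8.73 ± 0.74 and a range of 1.46 with replicate 1 highest and replicate 2 lowest. The 6 remaining ADAM genes, adam9, adam11, adam15, adam21, adam28.2 and adam33, the last known in *Xenopus* as the neural crest protease ADAM13, had probe sets with means between 1.90 and 2.15. Adamts1, a secreted protease that cuts aggrecan and versican, was the one ADAMTS gene measured and read 11.76, 12.16 and 11.37, highest on replicate 2 and lowest on replicate 3.

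Versican (vcan), the large hyaluronan-binding proteoglycan of soft connective tissue, was detected by 3 of its 5 probe sets. These measured 10.86, 11.16 and 10.67, then 8.06, 8.55 and 7.12, and then 6.01, 5.74 and 5.32. Replicate 3 was lowest in all 3, and the second had a range of 1.43. The other probe sets of vcan had means of 3.12 and 1.92. Brevican (bcan), the versican relative of nervous tissue, measured 6.77, 6.33 and 6.21, highest on replicate 1. The neuron markers were also highest on replicate 1, and the part of nerve tissue in that order was not tested. Adam22 and gpc2, also described here as neuronal, were highest on replicate 1 but lowest on replicate 2. Nid2 and tnc were highest on replicate 1 as well. Hapln3, a link protein that fastens proteoglycans to hyaluronan, measured 9.77, 9.57 and 10.10 on its probe set of highest mean and 8.15, 8.67 and 8.45 for its L homeolog, with a further S probe set at 6.82, 6.83 and 7.42 and one not detected at 3.30.

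All 4 small leucine-rich proteoglycans taken by symbol, proteins that bind collagen fibrils and set their spacing, were detected by all 7 of their probe sets. Biglycan (bgn) was even, at 13.82, 13.91 and 14.004 for the L homeolog and 13.86, 13.91 and 13.92 for the S homeolog. Decorin (dcn) measured 13.95, 14.03 and 13.85 for the L homeolog, and its S homeolog measured 9.57, 10.42 and 9.66. Lumican (lum) measured 11.88, 12.15 and 11.48, and osteoglycin (ogn) measured 11.24, 11.67 and 10.86 for the L homeolog and 8.89, 9.52 and 9.04 for the S homeolog. Of the 7 probe sets, the 5 of dcn, lum and ogn were highest on replicate 2, and those of bgn were highest on replicate 3. Outside the choice by symbol, the small leucine-rich proteoglycans aspn and epyc were also measured and were lowest on replicate 3. Aspn read 12.66, 12.79 and 12.23, and epyc, a proteoglycan of epiphyseal cartilage, read 13.48, 13.48 and 12.96.

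The 3 thrombospondins, oligomeric glycoproteins that bind calcium and many matrix partners, were all detected. Thbs1, the activator of latent TGF-beta, measured 12.82, 13.13 and 12.98 on one S probe set and 7.59, 7.55 and 7.33 on another, whereas its L homeolog lay at 1.92. Thbs3, a cartilage and bone thrombospondin, measured 12.37, 12.18 and 12.41, with a second probe set at 8.30, 8.0 and 8.17. Thbs4, found in tendon, muscle and nerve, gave different orders for its copies. The S homeolog measured 12.46, 11.21 and 11.01 (mean 11.56 ± 0.78), with replicate 1 highest by more than 1 unit, and the L homeolog measured 8.21, 9.07 and 8.27, with replicate 2 highest.

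Fibronectin (fn1), the glycoprotein that binds integrins and collagens, was even across pools. Its 3 detected probe sets read 14.19, 14.30 and 14.19, then 14.05, 14.16 and 14.10, and then 13.09, 13.19 and 13.12. The first and the last were designed on the same sequence record. Replicate 2 was highest in all 3, by a small margin, and a further probe set at 2.69, 2.0 and 2.0 was not detected. Tenascin C (tnc), the anti-adhesive glycoprotein of developing and remodelling tissue, measured 8.62, 8.09 and 8.20 and, on its other probe set, 7.06, 6.12 and 6.12, highest on replicate 1 in both.

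Of the fibre and basement membrane glycoproteins, fibulin 1 (fbln1) measured 11.73, 12.17 and 12.30 on one probe set and 10.63, 10.61 and 10.47 on the other, so that its 2 probe sets ran in opposite order. Fibrillin 3 (fbn3), a microfibril protein, measured 11.34, 11.32 and 11.37. Nidogen 2 (nid2), which joins the laminin and collagen IV networks of basement membranes, measured 8.55, 7.72 and 7.53, and replicate 1 was 0.92 above the mean of the other pools.

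At the cell surface, syndecans 2, 3 and 4 were detected and syndecan 1 (sdc1), the form typical of epithelia, was not, with probe set means of 2.06 and 1.86. Sdc2, the syndecan of mesenchymal cells, was detected by 5 of its 6 probe sets. That of highest mean measured 14.002, 14.07 and 13.99, and a further S probe set, at 9.41, 9.75 and 8.73, spread most. The probe set not detected, of the L homeolog, had a mean of 2.56. Sdc3, a syndecan of neural tissue and cartilage, lay near the minimum at 4.64, 4.42 and 4.51 (adjusted p = 0.00435 by limma). Sdc4, the syndecan of focal adhesions, measured 11.88, 11.95 and 12.06 and also 8.79, 9.06 and 8.95 for its L homeolog. The S homeolog of sdc4 was less even, with 7.69, 9.07 and 8.55 on one probe set and 4.89, 5.24 and 3.75 on another, which did not pass limma's test (adjusted p = 0.181). Of the 10 detected syndecan probe sets, 8 were highest on replicate 2, all of them of sdc2 or sdc4. Sdc3 was highest on replicate 1, and the sdc4 probe set of highest mean on replicate 3.

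Both glypicans, which hang on the membrane by a lipid anchor and modulate Wnt, Hedgehog and FGF signals, were detected. Gpc4 was read by 4 probe sets: the highest measured 12.36, 12.48 and 12.30, and the others measured 9.33, 9.66 and 9.86, then 9.17, 9.61 and 9.76, and then 8.72, 9.12 and 9.48. These 3, of which 2 were designed on the same sequence record, were lowest on replicate 1 and highest on replicate 3, whereas the first was lowest on replicate 3. Gpc2, a glypican of neurons, measured 8.46, 7.55 and 8.38.

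Whether a gene counted as detected could depend on which of its probe sets was read. More than 1 probe set was present for 27 genes, and for 10 of these the probe sets fell on either side of the minimum: mmp13l, mmp28, mmp7, mmp9.2, adam10, hapln3, vcan, thbs1, fn1 and sdc2. The 13 probe sets of these genes that lay below 4 included some, such as those of fn1 and sdc2, whose gene had another probe set at 14 or more. Counting a gene only where all of its probe sets were detected gave 26 genes in place of 36. Of the 13 genes with probe sets for both homeologs, both copies were detected in 10, neither in mmp8 and adam33, and only the S copy in thbs1. The counts in this paragraph were not computed over all named genes, so whether matrix genes differ in them is not known.

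**Figure D2:**
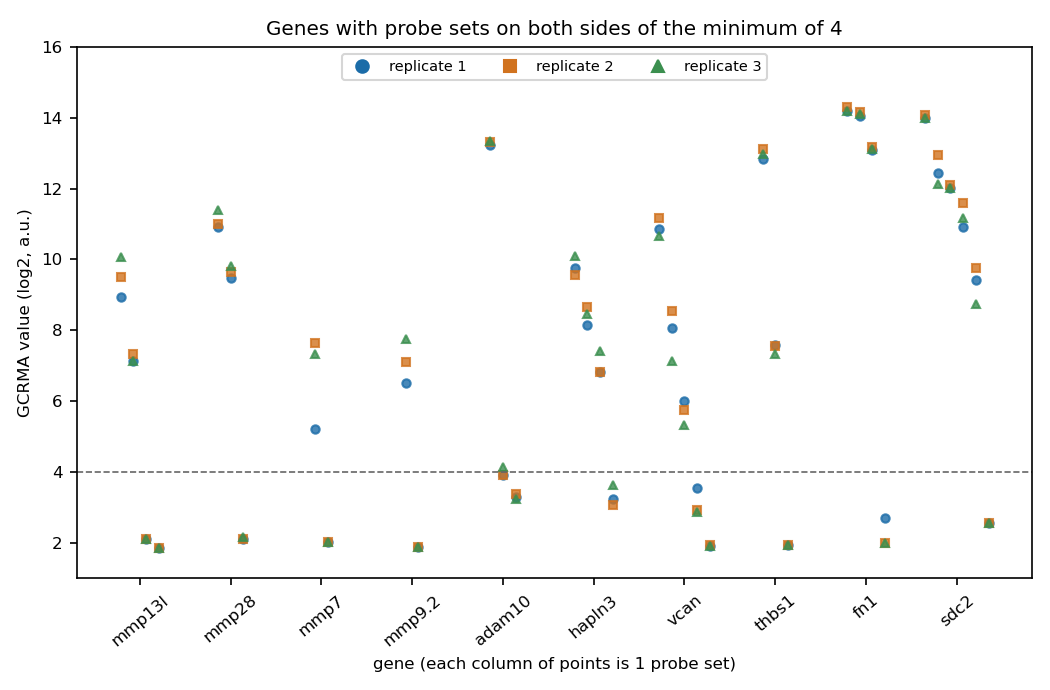
Value on each array (GCRMA log2, a.u., vertical axis) of every probe set of the 10 matrix genes with probe sets on both sides of the minimum of 4, the dashed line; each column of points is a probe set, and circles, squares and triangles are replicates 1, 2 and 3. The 13 probe sets with means below the line belong to genes that other probe sets place above it.

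The pools carried these genes less evenly than the average probe set at the lower and middle levels. A detected matrix probe set ranged over a median of 0.53 between its highest and lowest array, against 0.37 for all detected probe sets. At means from 4 to 8 the medians were 0.81 (16 matrix probe sets) and 0.56, from 8 to 11 they were 0.55 (21) and 0.39, and at 11 or more they were 0.18 (28) and 0.26. A range of 1.5 or more was reached by mmp7, at 2.41, and by the lower timp3 probe set, at 1.68, which is 2 of 65 (3.08%) against 2.89% of all detected probe sets and 2.55% of those with 1 symbol. Just outside that limit were sdc4 with 1.49, adam22 with 1.46 and thbs4 with 1.45. Among probe sets that were not detected, mmp13 had a range of 1.93.

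The metalloproteinases stood highest on replicate 3. Of their 13 detected probe sets, 9 (69.2%) were highest on replicate 3, against 33.5% of all detected probe sets and 29.3% of those with 1 symbol, and none was lowest on it, against 33.6% and 38.8%. Their median difference from the mean of the other arrays was 0.29 on replicate 3, -0.21 on replicate 1 and -0.03 on replicate 2, whereas over all detected probe sets these medians lay between -0.01 and 0.01. The median difference was 0.34 against replicate 1 alone, 0.33 against replicate 2 alone and 0.40 with 1 probe set per gene. Those not highest on replicate 3 were mmp7, mmp16 and the L copy of mmp13l, all highest on replicate 2, and the mmp14 probe set of highest mean. The lower mmp14 probe set is among the 9 although its values on replicates 1 and 3 are equal at the rounding given above. Each pool is 1 sample, so this difference between pools has no replicate check.

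**Figure D3:**
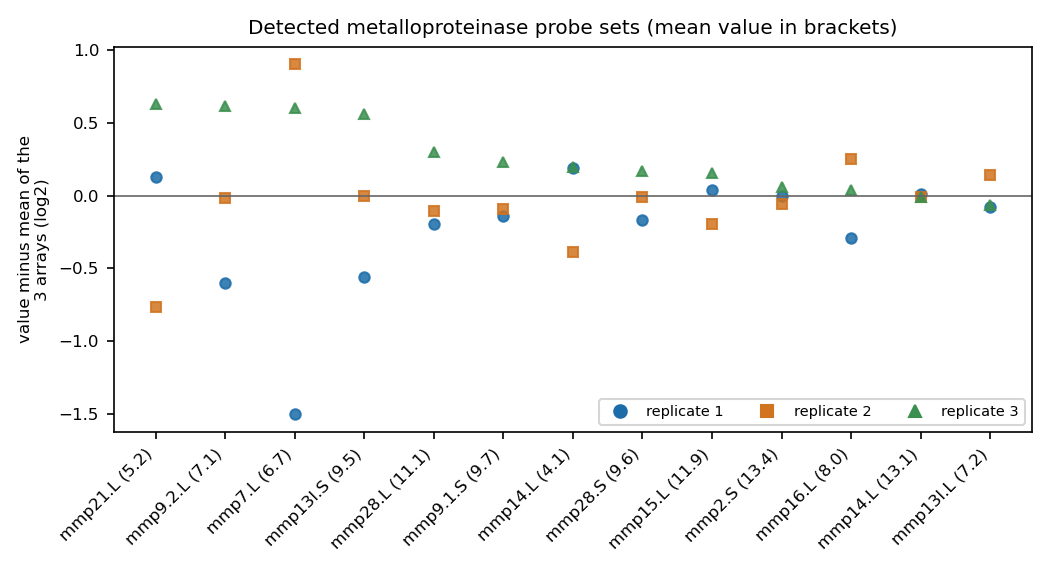
Value of each of the 13 detected metalloproteinase probe sets minus its own mean over the 3 arrays (log2, vertical axis), by gene copy with the mean in brackets; circles, squares and triangles are replicates 1, 2 and 3. The triangle is the highest symbol for 9 of the 13 probe sets, and the symbols of mmp7 are the farthest apart, over 2.41.

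Some other lists also leaned towards 1 pool, and not all towards the same one. By the median, the small leucine-rich proteoglycans were 0.47 and the syndecans 0.38 above the mean of the other arrays on replicate 2. The syndecan median rests on 10 probe sets of 3 genes. On the probe set of highest mean, the difference on replicate 2 was 0.08 for sdc2, -0.16 for sdc3 and -0.02 for sdc4. The glypican median was 0.43 below the mean of the other arrays on replicate 1 and 0.38 above it on replicate 3. That median rests on 5 probe sets and followed 3 probe sets of gpc4. Gpc2 was instead highest on replicate 1, and the gpc4 probe set of highest mean was lowest on replicate 3. Over all 65 detected matrix probe sets, 16 (24.6%), 28 (43.1%) and 21 (32.3%) were highest on replicates 1, 2 and 3, against 33.8%, 32% and 33.5% of all detected probe sets and 32.8%, 37.3% and 29.3% of those with 1 symbol. They were lowest on these replicates in 30 (46.2%), 13 (20.0%) and 20 (30.8%) cases, against 30.6%, 35% and 33.6% of all and 31.3%, 29.4% and 38.8% of those with 1 symbol. The median difference over all of them was nevertheless small, at -0.05, 0.06 and -0.01. These 65 probe sets belong to 36 genes, and several genes count more than once. Of the 28 highest on replicate 2, 8 were syndecan probe sets. With 1 probe set per gene the median differences were -0.02, -0.02 and 0.03, so the lean towards replicate 2 did not remain in the median.

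**Figure D4:**
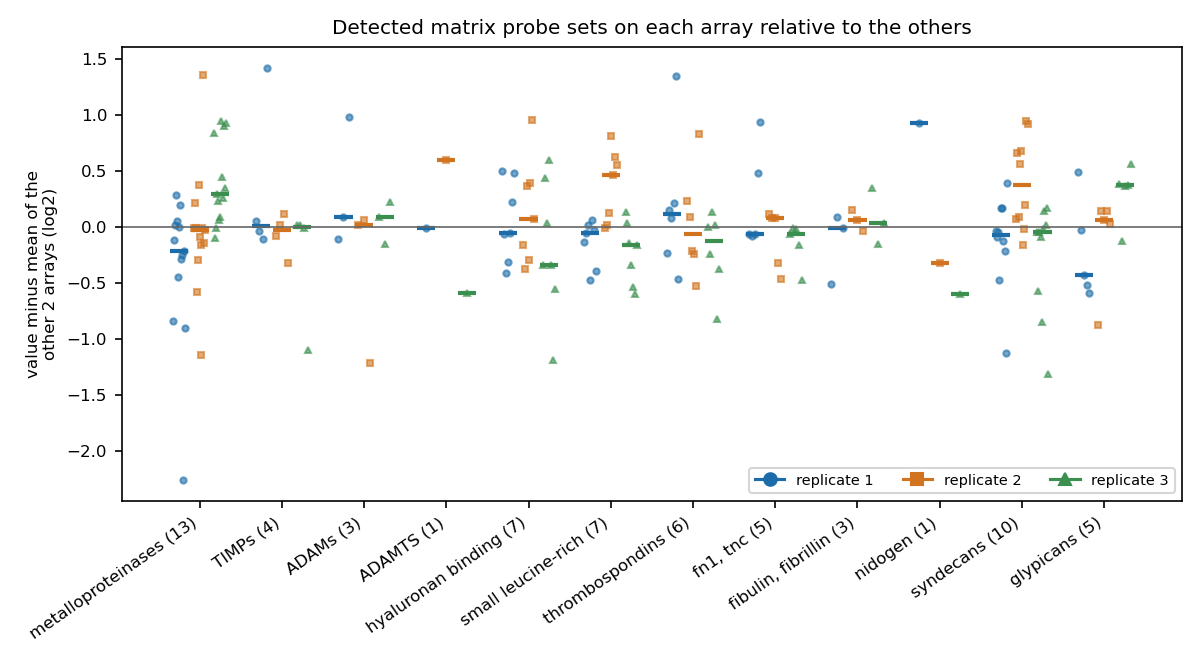
Value of each detected matrix probe set on an array minus the mean of the other 2 arrays (log2, vertical axis), by role with the number of probe sets in brackets; circles, squares and triangles are replicates 1, 2 and 3, and horizontal bars are medians. The medians are 0.47 in the small leucine-rich proteoglycans on replicate 2 and 0.29 in the metalloproteinases on replicate 3, and the single nidogen probe set is at 0.92 on replicate 1.

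Markers of the ear and of other tissues also differed between the pools, and their part in the order of the matrix genes was not tested. Otic epithelium and hair cell markers had a median difference of 0.31, -0.01 and -0.15 on replicates 1, 2 and 3. Of their 22 detected probe sets, 12 were highest on replicate 1 and 7 on replicate 3, and 11 were lowest on replicate 3. For bone markers, with 2 of 3 genes detected, the medians were 0.05, 0.29 and -0.33. On replicate 3, 19 of 26 detected skeletal muscle probe sets were highest, and the other 7 were highest on replicate 1. Among the 7 was myh4, at 9.22, 6.70 and 6.62. Of the muscle genes 14 of 15 were detected, 13 passed limma's test, and the defining factor myod1 was not detected, at 1.97. Neuron markers were highest on replicate 1 in 20 of 23 detected probe sets and lowest on replicate 3 in 20. Of the 17 neuron genes 15 were detected, syt1 and elavl3 were not, and 14 passed limma's test. Nefl, a neurofilament, measured 11.70, 10.53 and 10.23.

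Of the 9 detected leukocyte probe sets 8 were lowest on replicate 3 and 5 highest on replicate 2. Over all measured leukocyte probe sets the summed levels were 21251, 22319 and 19761. Of the 9 leukocyte genes 7 were detected, and ptprc and tyrobp were not, at 2.04 and 1.98. Skin and skin gland markers had all 9 genes detected, 7 of them passing limma's test. They were lowest on replicate 3 in 15 of 18 detected probe sets and highest on replicate 2 in 13. Their summed levels were 218794, 216368 and 203505. The gland peptides xenoxin1, at 7.49, 7.99 and 1.89, and levi, at 7.58, 7.29 and 2.25, fell most. Magainins measured 10.49, 10.61 and 10.30, and the keratin krt19 measured 15.36, 15.38 and 15.31. Pigment cell markers had 5 of 6 genes detected, with mitf not detected at 2.13. They were highest on replicate 2 in 5 of 6 detected probe sets and summed to 15271, 20116 and 17568. Schwann cell markers, with 5 of 7 genes detected, were lowest on replicate 3 in 7 of 9 probe sets. Erythrocyte markers had all 10 genes detected, 8 of them passing limma's test, and were highest on replicate 2 in 8 of 14 probe sets. Hbg2, at 3.40, 6.87 and 2.66, reached the minimum only through replicate 2. Endothelium and smooth muscle markers, with 9 of 10 genes detected, were highest on replicate 2 in 10 of 21 and lowest there in 8. Their median difference on replicate 2 was 0.04. Of the 8 cartilage markers all were detected, with a median difference of 0.15, -0.12 and -0.15 on replicates 1, 2 and 3, and of the 10 fibroblast markers 7 were, with 0.21, 0.06 and -0.21 and 10 of 12 detected probe sets lowest on replicate 3. Immediate early and stress genes, which respond to handling, had 18 of 20 genes detected, 17 passing limma's test, and a median difference of 0.09, 0.21 and -0.34. The 5′ minus 3′ signal of the gapdh control was -1.13, -1.04 and -1.36 and that of the ef1a control -3.13, -3.00 and -3.87, both lowest on replicate 3, whereas that of the actin control, -12.63, -12.62 and -12.57, was highest there.

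Counted by gene, other matrix genes were detected in shares from near that of all named genes upwards. A gene needed only 1 detected probe set for this. By probe set the shares were 80.6% for other matrix proteins and 75.0% for glycosaminoglycan and hyaluronan genes. For other proteases and inhibitors the share was 68.9%, against 72.8% of all probe sets with 1 symbol. Of 21 measured genes for other matrix proteins 18 (85.7%, against 80.2% of all named genes) were detected and passed limma's test, with egfl6 at 3.32, reln at 1.92 and vtn at 1.92 below the minimum. Of 27 genes for glycosaminoglycan synthesis, sulfation and hyaluronan turnover 24 (88.9%) were. The 3 that were not were the hyaluronan synthases has1, has2 and has3, at 1.86, 2.10 and 1.87. Each of these was read by only 1 probe set, so low values do not show that the gene was silent. The hyaluronan receptor cd44 measured 12.18, the hyaluronidase hyal2 11.90 and the heparan sulfate polymerase ext1 10.91 on average. Of 30 genes for other proteases and inhibitors that act on matrix 29 (96.7%) were detected, with loxl3 below the minimum. Among them were the protease inhibitors a2m at 14.55, cst3 at 14.77 and serpine2 at 13.95, the cysteine protease ctsb at 13.87 and the plasminogen activator plat at 10.87.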

How the data were processed

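Inner ear RNA of 3 pools of juvenile *Xenopus laevis* (1 group, 1 array per pool) was amplified, labelled and hybridised to Affymetrix arrays. The authors deposited GCRMA values, log2 intensities in arbitrary units, background-corrected, quantile-normalized and summarised per probe set in JMP Genomics. GCRMA places probe sets without signal near 2, where differences between arrays shrink. The sources used here do not state whether the study's larval arrays were normalized together with these. Scanner files were not used here. Arrays carry no read depth; precision rests on their number, 3.

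All value columns were mapped to samples. The 96 control probe sets were left out. Probe sets were named from GEO's platform annotation: of 32539, 15495 had 1 symbol, 279 several and 16765 none; all 96 matrix probe sets kept their symbol in the RefSeq table (assembly Xenopus_laevis_v10.1), which was used for names and gene order only. Of the 65 detected matrix probe sets, 11 are of classes that can match several transcripts.

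A mean of 4 or more defined detection. limma 3.58.1 in R 4.3.3 (lmFit, eBayes) tested, one-sided, whether a mean lay above 4, with Benjamini-Hochberg adjustment over all 32539 probe sets and a threshold of 0.05, after a check on simulated data. The p-values set the distance of a mean from 4 against the spread between pools, which limma moderates across probe sets. They test no difference between pools. Ranges (highest minus lowest array), differences of an array from the mean of the other 2, and counts of highest or lowest arrays (ties not counted) were computed in Python 3.11.15 without a test. Values on each array are given for the best known genes of each list, the 10 probe sets with the largest range, those within 0.5 of the minimum, and genes with probe sets on both sides of it; others are given by the same form. The matrix genes, the pathway lists and the marker lists were chosen with earlier results of these data known. Alternatives were other minima, every array at the minimum, quantile normalization over the 3 arrays, a trended limma fit, a fit on detected probe sets only, no multi-match classes, other range limits and leaving out each replicate.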

Additional observations from a re-analysis of the deposited data

How the results depend on the processing

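The number of detected matrix probe sets ran from 49 at a minimum of 8 to 70 at a minimum of 3 (65 at 4), and was 54 without classes that can match several transcripts. The number of genes passing limma's test ran from 31 to 36. The number with a range of 1.5 or more was 2, became 12 at a limit of 1 and 1 at a limit of 2, and was 0 to 2 when each replicate was left out in turn, with 0 without replicate 1 and 1 without replicate 3. The place of single genes near the minimum moved with it by construction. Mmp13 lay above a minimum of 3 (adjusted p = 0.236 by limma) and, without replicate 2, above 4 (0.164), passing the test in neither. Mmp21 had an adjusted p of 0.527 against a minimum of 5 and of 1 against 6, mmp7 of 0.082 and 0.328, adam17 and sdc3 of 1 against both, and bcan of 0.07 against 6. The alternatives for the metalloproteinases on replicate 3 were chosen after seeing the data: under quantile normalization 9 of 13 probe sets were highest there, with 1 probe set per gene 7 of 10, and at means of 6 or more 7 of 11. The remaining 504 alternative values kept the direction and side of the threshold of the reported ones, or stayed within the spread between pools or within 1.5 times the count. Some small medians among them changed sign. The matrix median on replicate 3 went from -0.01 to 0.03 under quantile normalization, with 1 probe set per gene and without replicate 2. On replicate 2 it went from 0.06 to -0.02 with 1 probe set per gene. Near the floor of about 2, GCRMA cannot show differences between pools.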

Other observations

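The CCN matricellular proteins, secreted regulators of adhesion and growth factor signalling, carry newer symbols on this array and so lay outside the choice by the names ctgf and cyr61. Ccn2, the gene once called ctgf, measured 14.43, 14.38 and 14.42 on replicates 1, 2 and 3. Ccn1, once called cyr61, measured 10.06, 10.76 and 9.54, highest on replicate 2 like most syndecan probe sets, and its relative ccn1l measured 8.91, 8.47 and 8.89. Ccn5 measured 9.38, 8.19 and 8.18, highest on replicate 1, and ccn3 was not detected, at 2.42, 2.48 and 2.76.

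Probe sets for the same gene copy did not always order the pools alike. Of the 14 matrix gene copies with several detected probe sets, 6 (42.9%) had the same highest array in all of them and 3 (21.4%) the same lowest array, against 47.2% and 43.8% of 1622 such copies over all named genes. A probe set with a tied array counted here as differing from one without a tie, which can lower these shares. This applied to the lowest array of fn1 and mmp14, and the same coding was used over all named genes. Of the 10 genes with both homeologs detected, 5 had the same highest array for both copies. The share over all homeolog pairs on the array was not computed.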
